A study of Homo sapiens with 10 samples.

Results

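Untreated K562 cells were compared with 3 other untreated human myeloid lines, HL60, MDSL and SKM1, on 1 array each, which used 4 of the 10 arrays of the series. K562 is a chronic myeloid leukaemia line that carries the BCR-ABL1 fusion and has erythroid features. The labels call HL60 an acute myeloid leukaemia line and MDSL and SKM1 lines of myelodysplastic origin. The 4 arrays compared are labelled Control, at 96 hours. The other 6 arrays held the same 4 lines after OR21 (OR-2100, a hypomethylating agent), at 500 nM in K562 and HL60 and at 100 nM in MDSL and SKM1, and 2 HL60 derivatives. The derivatives are labelled AZA resistant and OR21 resistant, with no dose given. MDSL was grown with IL-3, HL60 in a different basal medium with more serum, and the growth text names no medium for K562, so line and culture conditions cannot be told apart.

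Genes were chosen by the size of their difference alone. A gene was called higher in K562 where its log2 intensity lay at least 1 unit, that is 2-fold, above each of the other 3 untreated lines, and lower where it lay at least 1 unit below each of them. Intensities under the median of an array's background probes were set to that median before the comparison, so a difference from a gene at background is a minimum. Of 17687 genes, 789 (4.46%) were higher and 840 (4.75%) were lower in K562, 1629 (9.21%) in all. Each count of called genes in a list below is to be read against these shares. Each line had 1 array, so there was no replicate check, no error within a line and no test, and all that follows describes these arrays. Levels are log2 intensities, and a gene's level is set only against the same gene's level in the other lines. Because probe sets differ in brightness, levels of different genes were not ranked.

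Just inside the limit for higher genes lay MOV10, and just outside it lay EPB42, a membrane skeleton protein of red cells, both with a rounded difference of 1.00 from the nearest line. EPB42 stood at 6.41 in K562 and under background in HL60 (4.44), MDSL (4.57) and SKM1 (4.10), so its difference is a minimum. MOV10 was above background in each line. Just inside the limit for lower genes lay GUCD1, at 10.79 in K562 and 11.79 in SKM1, and just outside it lay OTUB2, with a difference just under the limit from HL60. Calls near the limit therefore turn on small differences or on the background floor.

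On the 4 arrays, background medians were 5.42 in K562, 5.41 in HL60, 4.98 in MDSL and 5.41 in SKM1. A gene at or under background on all 4 arrays, which held for 3901 genes, thus had a difference of 0.16, and this was also the median difference over all genes. Over the 13786 genes above background on at least 1 array the median was 0.04. Log2 levels of K562 correlated over all genes at r = 0.899 with HL60, 0.864 with MDSL and 0.893 with SKM1, whereas the other lines correlated with each other at 0.918 to 0.945. These correlations are across genes of 1 array pair each, and genes are not independent replicates. When the same rule was applied with another line set apart, HL60 had 302 higher and 284 lower genes, MDSL 743 and 802, and SKM1 486 and 153. K562 thus had the largest count in each direction, with MDSL close to it. Of the 3 lines, SKM1 was the nearest to K562 from below for 306 of the 789 higher genes (38.8%), HL60 for 244 (30.9%) and MDSL for 239 (30.3%).

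Among the higher genes the median difference from the mean of the other lines was 2.20. Of the 789, 274 were at least 4-fold, 81 at least 16-fold and 28 at least 64-fold above each other line, and in 83 (10.5%) the other 3 lines were all at or under background. Among the lower genes the median was -2.68, with 388 at least 4-fold, 109 at least 16-fold and 30 at least 64-fold below each other line. K562 itself was at or under background in 199 of the 840 (23.7%).

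Red cells form when progenitors under the transcription factor GATA1 and its partners switch on globin, haem and red cell membrane genes, a programme driven by erythropoietin through the receptor EPOR and the kinase JAK2. Granulocytes and monocytes form instead under CEBPA and SPI1, which drive granule proteases, the phagocyte oxidase and surface receptors. K562 is widely used as a model of early erythroid gene expression, in which embryonic and fetal globins predominate.

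The genes named as markers of K562 were all higher. They were chosen with earlier results of these data known, so this is not a separate finding. GATA1, the master factor of erythroid development, stood at 13.14 in K562, against 6.80 in HL60, 10.99 in MDSL and 6.49 in SKM1. The margin over MDSL, the nearest line, was 2.15. The other markers are cancer-testis genes. CT45A1 stood at 11.21 in K562, against 4.99 in HL60, 4.23 in MDSL and 4.18 in SKM1, all under background. MAGEA3 stood at 11.96 in K562, against 6.37 in HL60, 7.08 in MDSL and 6.37 in SKM1. GAGE1 stood at 10.15 in K562, against 4.25 in HL60, 5.09 in MDSL and 4.05 in SKM1, with MDSL alone just above its background.

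Globin genes were the highest group by median difference among the erythroid lists. Of 8 measured globins 6 were higher in K562, none lower, and the median was 6.23, against 0.16 over all genes. HBZ, the embryonic zeta chain, stood at 13.68 in K562 and under background in HL60 (3.94), MDSL (3.50) and SKM1 (3.84), a margin of at least 8.26. In bulk RNA, fewer cells that express a gene and less RNA per cell cannot be told apart. HBE1, the embryonic epsilon chain, stood at 13.59 in K562, against 4.93 in HL60, 5.83 in MDSL and 5.80 in SKM1, a margin of 7.76 over the nearest line. HBA1 and HBA2, the near-identical adult alpha genes, stood at 15.72 and 15.33 in K562, with the other lines between 6.02 and 7.67.

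The adult beta globin HBB was higher by a smaller margin, at 10.81 in K562 against 4.67 in HL60, 7.87 in MDSL and 5.50 in SKM1. HBQ1, the theta globin, stood at 7.05 in K562 against 5.52 in HL60, 5.93 in MDSL and 5.95 in SKM1. HBD was not called, with 7.32 in K562 and 6.43 in MDSL as the nearest line, and HBM was at or under background on all 4 arrays. The fetal gamma genes HBG1 and HBG2 were not analysed here under those names. MDSL was the line nearest to K562 for HBB and HBD. Near-identical copies share probe sequence, so HBA1 and HBA2 cannot be taken as separate measurements.

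The erythroid transcription factors were higher in 5 of 13 and lower in 1, with a median of 0.61, which was 0.95 without MDSL. KLF1, the factor that activates adult globin and haem genes, stood at 10.17 in K562, against 5.45 in HL60, 5.34 in MDSL and 4.67 in SKM1. TAL1, the helix-loop-helix partner of GATA1, stood at 10.49 in K562 against 5.50 in HL60, 6.17 in MDSL and 6.89 in SKM1. GFI1B, a repressor of early erythroid and megakaryocyte genes, stood at 12.12 in K562 against 5.60 in HL60, 10.46 in MDSL and 5.38 in SKM1. KLF3, a related repressor, had a margin of 1.64 over the nearest line. The exception was BCL11A, which silences fetal globin, at 4.61 in K562 (under background) against 11.45 in HL60, 10.23 in MDSL and 10.28 in SKM1. GATA2, the factor of progenitors that GATA1 displaces, was not called, at 10.60 in K562 and 11.60 in MDSL.

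Red cell membrane genes were higher in 8 of 19 measured and lower in none, with a median of 1.97. RHAG, the Rh-associated ammonium transporter, stood at 14.70 in K562 against 4.11 in HL60, 5.87 in MDSL and 3.67 in SKM1. ANK1, the ankyrin that anchors the spectrin skeleton, stood at 12.25 in K562 against 6.14 in HL60, 6.45 in MDSL and 6.26 in SKM1. KEL, the Kell blood group protease, stood at 10.83 in K562 against 4.97 in HL60, 6.15 in MDSL and 4.90 in SKM1. RHD and RHCE, the Rh antigens, stood at 9.10 and 8.17 in K562, with the other lines between 4.35 and 5.71. They share nearly all of their sequence, so the probe sets may report both. ERMAP, TMOD1 and ICAM4 were the remaining members, with margins of 2.06, 1.76 and 1.05 over the nearest line. The glycophorin genes were not analysed here.

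Haem synthesis genes went both ways. UROD, the fifth enzyme of the pathway, stood at 15.09 in K562 against 11.60 in HL60, 11.67 in MDSL and 10.78 in SKM1. ALAS2, the erythroid form of the first enzyme, stood at 8.07 in K562 and under background in HL60 (4.76), MDSL (4.89) and SKM1 (5.19). ALAS1, its ubiquitous form, was lower, at 9.53 in K562 against 11.77 in HL60, 12.37 in MDSL and 11.76 in SKM1. ABCB6, a porphyrin transporter, was also higher, and 3 of 12 were higher and 1 lower in all, with a median of 0.72. Among 10 iron genes only the mitochondrial iron importer SLC25A37 was higher, at 11.14 in K562 against 10.05 in HL60, 9.29 in MDSL and 9.92 in SKM1. The median of the iron list was 0.23, and 4.46% of all genes were higher.

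In the list of EPO receptor and STAT5 signalling genes, 6 of 14 were higher and none lower, against 4.46% and 4.75% over all genes. The list median was 1.61. That median was 2.47 against HL60 and 2.05 against SKM1, but 0.48 against MDSL. KIT, in the same list, went the other way and was not called, with a difference of -4.61 from the mean of the other lines. EPOR stood at 8.00 in K562 against 6.60 in HL60, 6.75 in MDSL and 6.79 in SKM1. STAT5A stood at 13.02 in K562 against 8.11 in HL60, 11.07 in MDSL and 9.74 in SKM1. CRKL, an adaptor and substrate of the ABL kinases, stood at 15.33 in K562 against 12.77 in HL60, 13.18 in MDSL and 12.88 in SKM1. It lies on chromosome 22 in the run from ESS2 to PRAME described below, where 26 of 42 genes were higher. The part of that run in its level was not tested. SOCS2, an inducible feedback inhibitor, stood at 12.80 in K562 and 11.57 in MDSL, against 4.58 in HL60 and 5.47 in SKM1, so MDSL lay close to K562. PIM1, a kinase and target of STAT5, stood at 13.24 in K562 and was not called, against 6.96 in HL60, 14.97 in MDSL and 6.73 in SKM1. MDSL was the line whose medium held IL-3, which also signals through STAT5, and the part of the medium in these levels was not tested.

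**Figure D1:**
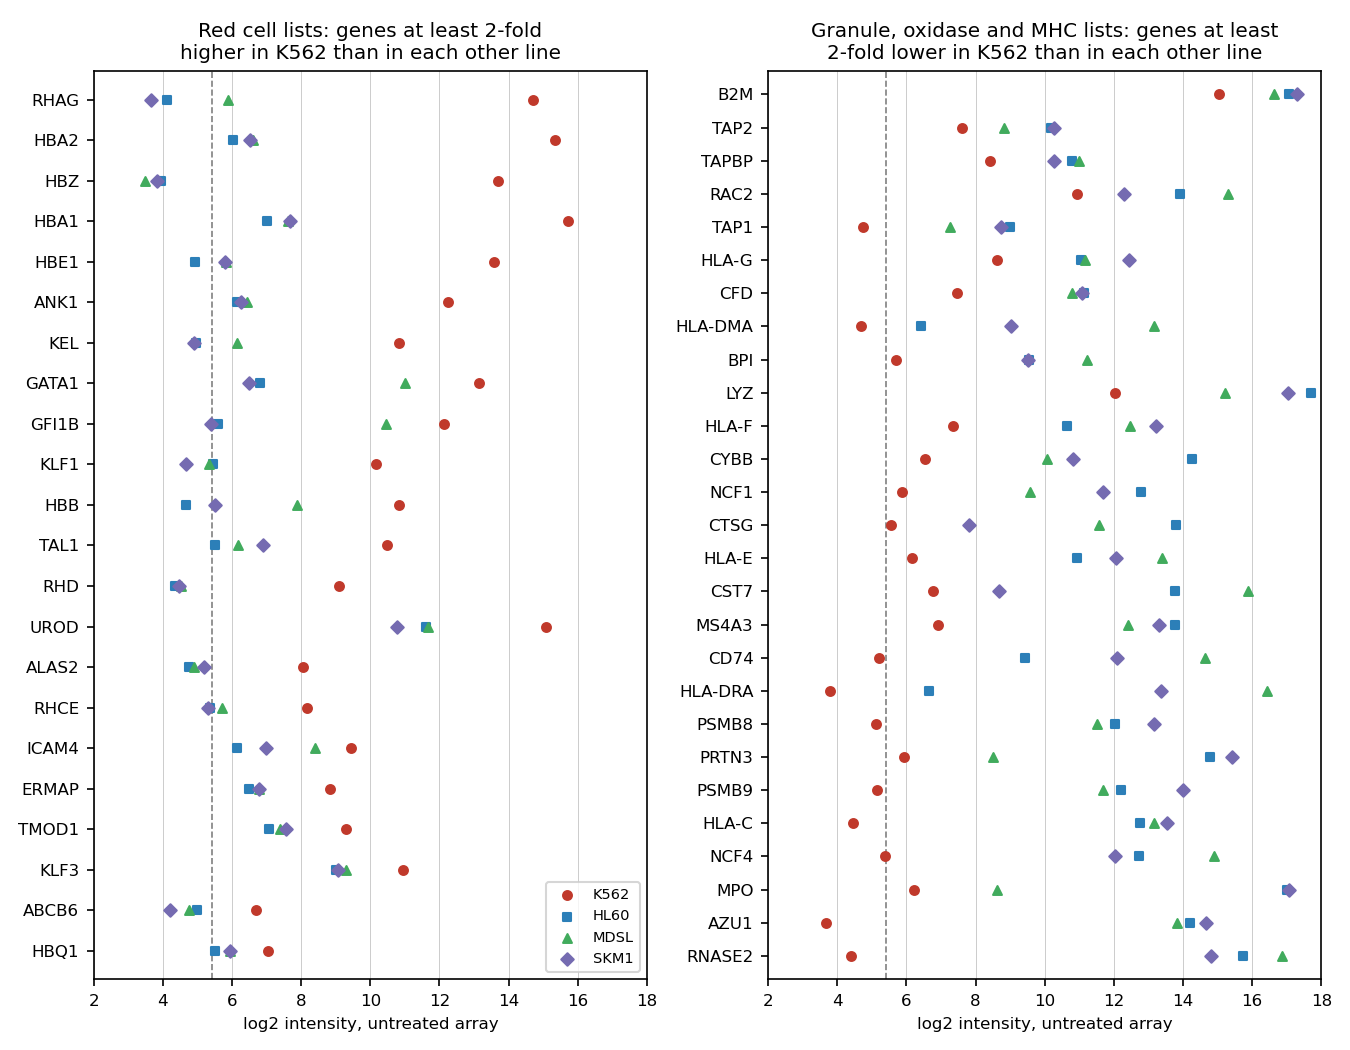
Log2 intensity of called genes of the red cell lists (left) and of the granule, oxidase and MHC lists (right) on the untreated arrays; each symbol is 1 array and the dashed line is the background median of K562. K562 lies right of the other lines for each gene on the left and left of them on the right, and MDSL is nearest for GATA1 and GFI1B.

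For the red cell genes RHAG, RHD, KEL, KLF1 and EPOR, the 250 bases before the annotated start were examined for the sequence that GATA1 binds, the letters GATA with A or T before them and A or G after them, on both strands; these motifs and the promoters printed were chosen after the windows had been searched. Capitals mark each hexamer as it reads on the strand printed. The RefSeq windows on GRCh38.p14 are chr6:49636840-49637089 (minus strand), chr1:25272236-25272485 (plus strand), chr7:142962364-142962613 (minus strand), chr19:12887202-12887451 (minus strand) and chr19:11384315-11384564 (minus strand).
RHAG: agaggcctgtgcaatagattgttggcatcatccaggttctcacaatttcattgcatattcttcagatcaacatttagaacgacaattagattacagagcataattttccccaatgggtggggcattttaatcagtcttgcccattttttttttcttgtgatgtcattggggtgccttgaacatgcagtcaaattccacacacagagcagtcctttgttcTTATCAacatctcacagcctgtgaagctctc
RHD: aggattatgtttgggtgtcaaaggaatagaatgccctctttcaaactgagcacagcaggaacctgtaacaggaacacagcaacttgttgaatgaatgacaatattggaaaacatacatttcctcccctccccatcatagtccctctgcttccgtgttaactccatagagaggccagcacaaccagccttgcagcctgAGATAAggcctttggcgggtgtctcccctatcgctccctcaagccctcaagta
KEL: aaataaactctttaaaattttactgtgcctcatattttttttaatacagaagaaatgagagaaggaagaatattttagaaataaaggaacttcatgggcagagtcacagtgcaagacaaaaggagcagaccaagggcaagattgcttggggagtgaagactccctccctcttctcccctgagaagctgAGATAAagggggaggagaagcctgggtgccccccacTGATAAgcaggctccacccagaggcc
KLF1: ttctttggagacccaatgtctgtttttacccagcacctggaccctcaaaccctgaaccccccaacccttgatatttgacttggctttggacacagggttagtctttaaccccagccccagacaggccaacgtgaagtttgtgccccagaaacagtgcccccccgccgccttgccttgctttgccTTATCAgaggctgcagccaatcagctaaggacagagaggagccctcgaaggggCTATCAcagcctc
EPOR: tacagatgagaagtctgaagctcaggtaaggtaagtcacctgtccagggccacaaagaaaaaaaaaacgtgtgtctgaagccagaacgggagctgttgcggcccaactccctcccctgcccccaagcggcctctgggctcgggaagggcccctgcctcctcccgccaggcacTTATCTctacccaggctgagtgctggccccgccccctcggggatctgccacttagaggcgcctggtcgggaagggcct
The hexamer began 31 bases before the start in RHAG, 53 in RHD, 62 and 26 in KEL, 66 and 13 in KLF1 and 78 in EPOR. Of the 14 erythroid genes higher in K562 with a window in the RefSeq table, 6 (42.9%) held a hexamer (ALAS2, RHAG, RHD, KEL, TAL1 and KLF1), against 22.9% of all 27305 promoters, 17.6% of the genes measured on the array, 14.1% of all higher genes and 15.9% of all lower genes. For comparison, CCAAT, searched on both strands, was in 42.9% of the 14 and 33.0% of all promoters, and CACCC in 57.1% and 53.7%. EPOR, in another list, is printed as a further example. The closest pair of annotated windows of RHD and RHCE was identical at 248 of 250 positions. Hexamers were counted in the first listed window of each gene, and that of RHCE held none. A hexamer is a match of letters only and was not tied to binding in these cells.

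Megakaryocyte and platelet genes gave no such pattern. Of 18 measured 1 was higher and 1 lower, against 4.46% higher and 4.75% lower over all genes, with a median of -0.02. GP6, the platelet collagen receptor, was higher in K562, at 7.97 in K562 against 5.72 in HL60, 5.88 in MDSL and 5.90 in SKM1, whereas FLI1, a factor of megakaryocyte development, stood at 4.69 in K562, under background, against 11.40 in HL60, 13.65 in MDSL and 12.49 in SKM1. ITGA2B, the platelet integrin, stood at 6.65 in K562, against 5.38 in HL60, 13.62 in MDSL and 6.91 in SKM1, so MDSL alone was high.

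Granulocyte genes had the lowest median difference of the 35 lists. Of 12 primary granule genes 10 were lower in K562 and none higher, with a median of -5.76. RNASE2, the eosinophil-derived ribonuclease, stood at 4.39 in K562, under background, against 15.74 in HL60, 16.87 in MDSL and 14.80 in SKM1. AZU1, azurocidin, stood at 3.69 in K562, under background, against 14.21 in HL60, 13.83 in MDSL and 14.66 in SKM1. MPO, myeloperoxidase, stood at 6.23 in K562 against 17.01 in HL60, 8.62 in MDSL and 17.08 in SKM1, so its margin was smallest against MDSL, at -2.39. PRTN3, proteinase 3, followed the same order, at 5.93 in K562 against 14.78 in HL60, 8.51 in MDSL and 15.43 in SKM1. LYZ, lysozyme, was lower but still high in K562, at 12.03 in K562 against 17.71 in HL60, 15.22 in MDSL and 17.03 in SKM1.

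The phagocyte NADPH oxidase was lower in 4 of 5 subunits, with a median of -5.18. CYBB, its catalytic subunit, stood at 6.54 in K562 against 14.27 in HL60, 10.07 in MDSL and 10.82 in SKM1. NCF4, a cytosolic subunit, stood at 5.38 in K562 against 12.74 in HL60, 14.90 in MDSL and 12.04 in SKM1. CYBA, the membrane partner of CYBB, was not called, at 12.15 in K562 against 11.87 in HL60, 13.07 in MDSL and 13.22 in SKM1. The myeloid transcription factors were lower in 5 of 11 and higher in 1, with a median of -2.22. CEBPA stood at 4.59 in K562, under background, against 11.29 in HL60, 10.45 in MDSL and 10.97 in SKM1. SPI1 stood at 7.51 in K562 against 12.05 in HL60, 11.79 in MDSL and 11.38 in SKM1. RUNX1, a factor of early blood development, was lower at 10.32 in K562 against 12.27 in HL60, 14.35 in MDSL and 12.95 in SKM1. The 1 higher gene was EGR1, an immediate early factor, at 10.90 in K562 against 8.47 in HL60, 5.40 in MDSL and 5.18 in SKM1.

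Surface receptors of myeloid cells were lower in 11 of 23, with a median of -2.66, and none was higher. FCER1G and TYROBP, the signalling adaptors of Fc and related receptors, stood at 3.84 and 7.39 in K562, with the other lines between 11.18 and 15.19. The integrin chain ITGB2 stood at 4.86 in K562 against 11.47 in HL60, 12.85 in MDSL and 11.76 in SKM1. PTPRC, the CD45 phosphatase, missed the call at 10.36 in K562, with HL60 the nearest at 11.35. Of 17 cytokine receptors 6 were lower, with a median of -2.20, among them CSF3R, the receptor for granulocyte colony-stimulating factor, and CXCR4, the chemokine receptor that retains cells in marrow, at 6.02 in K562 against 14.00 in HL60, 13.04 in MDSL and 12.44 in SKM1. Mast cell and basophil genes were lower in 2 of 11 and higher in none, with a median of -1.40 that rested on MDSL: against MDSL alone it was -4.82, and against HL60 and SKM1 it was 0.01 in each. Over all genes 4.75% were lower and 4.46% higher.

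Most class I antigen presentation genes were lower in K562. Of 14 class I genes 10 were lower and none higher, with a median of -2.92. HLA-C stood at 4.45 in K562, under background, against 12.77 in HL60, 13.17 in MDSL and 13.55 in SKM1. PSMB8 and PSMB9, subunits of the immunoproteasome, stood at 5.13 and 5.16 in K562, with the other lines between 11.51 and 14.01. TAP1 and TAP2, which carry peptides to class I molecules, were lower too, at 4.73 and 7.60 in K562, as was the light chain B2M, at 15.05 in K562 against 17.06 in HL60, 16.63 in MDSL and 17.30 in SKM1. Probes of 1 HLA gene can read its relatives. Of 9 class II genes 3 were lower, HLA-DRA, HLA-DMA and the invariant chain CD74. The class II median of -3.44 rested largely on MDSL, since it was -0.23 against HL60, -7.48 against MDSL and -2.63 against SKM1, and -1.43 without MDSL. Their levels differed among the other lines, HLA-DRA standing at 3.79 in K562, under background, against 6.64 in HL60, 16.42 in MDSL and 13.36 in SKM1. CIITA, the activator of class II genes, was at or under background in K562 and HL60 and was not called.

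Of 26 measured interferon-stimulated genes 4 were lower, IFIT3, PARP14, RIGI and IFIH1, and 1 higher, BST2, against 4.75% lower and 4.46% higher over all genes. Their median was -0.26, and -0.09 without MDSL. In the treated arrays 9 of the 26 were lower and 0 higher, against 6.41% each way over all genes. IFIH1, a sensor of double-stranded RNA, stood at 3.83 in K562, under background, against 8.69 in HL60, 8.40 in MDSL and 8.52 in SKM1. IFITM1 was high in K562 at 16.70 and in MDSL at 15.97, with 9.37 in HL60 and 13.77 in SKM1.

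Cancer-testis genes, which are normally restricted to the germ line and are silenced by promoter methylation in most tissues, were higher in K562 in part: over 5 lists 26 were called higher and 40 were not called, and the CT45A family alone was higher throughout. Some of the 40 were at or under background on all 4 arrays. All 9 measured CT45A genes were higher, with a median of 6.52. Their K562 levels ran from 11.21 to 12.13, and the other 3 lines lay between 3.58 and 5.70. CT45A8 and CT45A9 had identical values on these arrays, and the family is near-identical in sequence, so the 9 are not separate measurements. Of 10 MAGE-A genes 4 were higher, with a median of 0.46. MAGEA6 stood at 12.65 in K562 against 6.21 in HL60, 6.87 in MDSL and 6.67 in SKM1. MAGEA2 stood at 11.91 in K562 against 6.68 in HL60, 7.01 in MDSL and 7.21 in SKM1. MAGEA4 was near the limit, at 6.86 in K562 against 5.72 in HL60, 5.74 in MDSL and 5.82 in SKM1.

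MAGEB2, MAGEC1 and MAGEC2 were the higher members among 11 of the MAGE-B and MAGE-C families, against 4.46% of all genes. The median of these families was 0.16, as over all genes, which is the value of a gene at background on all 4 arrays. Of the 11, 6 were above background on at least 1 array. MAGEC2, which partners a ubiquitin ligase, stood at 12.35 in K562 against 5.08 in HL60, 5.17 in MDSL and 5.49 in SKM1. Of 15 GAGE, PAGE and XAGE genes 6 were higher, with a median of 0.57. GAGE12G stood at 11.81 in K562 against 5.33 in HL60, 5.59 in MDSL and 4.94 in SKM1. Of 21 other cancer-testis genes 4 were higher, PRAME, CSAG1, CSAG3 and SAGE1, with a median of 0.16. PRAME, on chromosome 22 rather than X, stood at 16.34 in K562 against 12.00 in HL60, 7.49 in MDSL and 9.72 in SKM1, so it was above background in each other line too. It closes the run of higher genes on chromosome 22 described below. CTCFL, a germ line relative of the insulator protein CTCF, stood at 12.33 in K562 and under background in HL60 (4.88), MDSL (4.01) and SKM1 (4.74). Among 21 meiosis and germ cell genes 1 was higher, against 4.46% of all genes. It was DMC1, the meiotic recombinase, at 9.02 in K562 against 7.25 in HL60, 6.06 in MDSL and 7.63 in SKM1. The germ cell list had a median of 0.16, the value of a gene at background on all 4 arrays. Only 8 of its 21 genes were above background on any of the 4 arrays.

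The windows before CT45A1, MAGEA3 and GAGE1, named as markers of K562, are shown because CG pairs are the sites that DNA methylation acts on; capitals mark each CG. They are chrX:135713389-135713638 (plus strand), chrX:152698544-152698793 (plus strand) and chrX:49598763-49599012 (plus strand) on GRCh38.p14, from RefSeq.
CT45A1: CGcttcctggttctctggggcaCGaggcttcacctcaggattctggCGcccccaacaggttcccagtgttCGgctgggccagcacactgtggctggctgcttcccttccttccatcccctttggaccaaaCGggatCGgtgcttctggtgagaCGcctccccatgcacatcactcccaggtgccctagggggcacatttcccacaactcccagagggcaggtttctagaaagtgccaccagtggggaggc
MAGEA3: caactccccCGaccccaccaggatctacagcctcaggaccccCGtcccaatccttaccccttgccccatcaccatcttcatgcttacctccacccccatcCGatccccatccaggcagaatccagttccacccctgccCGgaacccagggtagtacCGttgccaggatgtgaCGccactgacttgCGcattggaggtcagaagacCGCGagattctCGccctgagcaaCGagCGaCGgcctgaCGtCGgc
GAGE1: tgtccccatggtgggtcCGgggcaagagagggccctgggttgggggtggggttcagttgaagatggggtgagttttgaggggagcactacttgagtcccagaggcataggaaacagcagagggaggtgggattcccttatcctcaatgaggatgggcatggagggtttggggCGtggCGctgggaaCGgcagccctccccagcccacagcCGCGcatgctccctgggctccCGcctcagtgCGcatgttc
CT45A1 held 7 CG pairs, MAGEA3 15 and GAGE1 8, against a median of 11 over all promoters, 18 over the genes measured on the array, 21 over the higher genes, 19 over the lower genes and 9 over the 20 higher cancer-testis genes with a window. None of those 20 held a GATA hexamer, but they include near-identical copies, which are not separate counts. Over the 34 cancer-testis genes with a window that were not called, the median was 7 CG pairs, and 10 (29.4%) held a hexamer. The closest pair of annotated MAGEA3 and MAGEA6 windows was identical at 250 of 250 positions, so those genes cannot be told apart by that pair. Methylation was not measured.

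**Figure D2:**
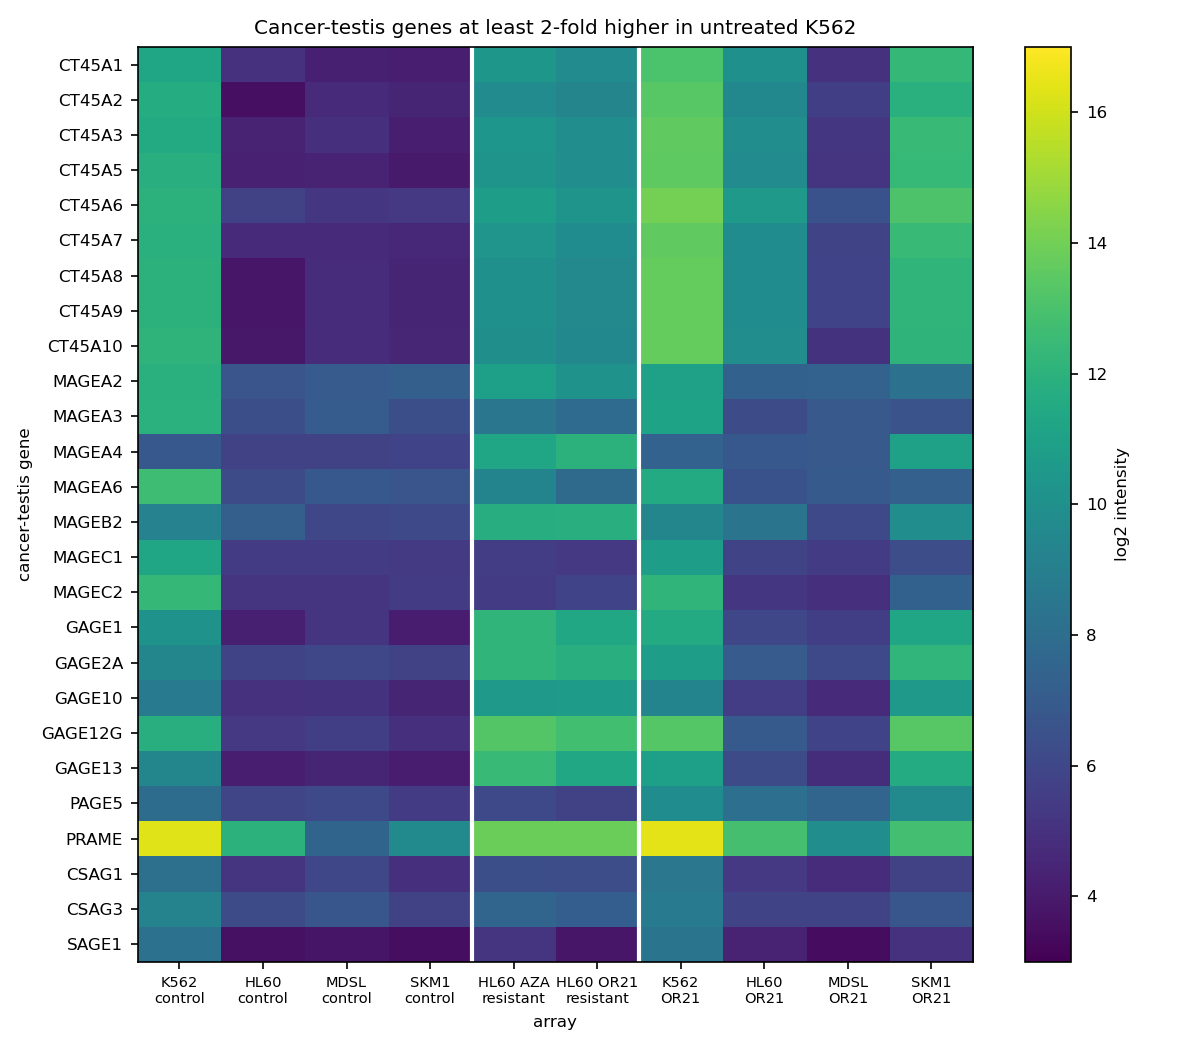
Log2 intensity (colour) of the 26 cancer-testis genes at least 2-fold higher in untreated K562, in the untreated arrays, the 2 resistant HL60 derivatives and the OR21 treated arrays. The CT45A and GAGE rows are dark in untreated HL60, MDSL and SKM1 and brighter in both resistant HL60 derivatives and in OR21 treated SKM1.

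Because HL60 had resistant derivatives, the K562 values could be set against those too. GAGE1 stood at 10.15 in K562, against 12.14 in AZA resistant HL60 and 11.39 in OR21 resistant HL60, so both derivatives lay above K562. CT45A1 stood at 11.21 in K562, against 10.38 in AZA resistant and 9.76 in OR21 resistant HL60. CTCFL stood at 12.33 in K562, against 11.57 in AZA resistant and 11.81 in OR21 resistant HL60. MAGEC1 and MAGEC2 stayed near their HL60 level in both derivatives, between 5.31 and 5.82. The calls of 5 GAGE genes, CTCFL, MAGEA4 and MAGEB2 therefore held against parental HL60 and were lost with either derivative in its place. DNMT3A, FLT3, PRG2 and MLLT3 also lost their calls with either derivative, whereas CT45A1 lost its call with AZA resistant HL60 and kept it with OR21 resistant HL60.

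DNA methylation enzymes differed in part, with 3 of 11 higher, none lower and a median of -0.15. Over all genes 4.46% were higher and 4.75% lower. DNMT3A stood at 9.22 in K562 against 7.24 in HL60, 7.14 in MDSL and 6.93 in SKM1. DNMT3B, the other de novo enzyme, stood at 10.43 in K562 against 4.45 in HL60, 8.85 in MDSL and 7.17 in SKM1. TET1, which oxidises methylcytosine, stood at 8.41 in K562 against 6.31 in HL60, 6.37 in MDSL and 5.39 in SKM1. DNMT1, the maintenance enzyme that decitabine-like agents trap, stood at 10.83 in K562 against 11.05 in HL60, 11.38 in MDSL and 11.01 in SKM1. It was not called. In the handling of cytidine analogues the median was 0.13, and 1 of 18 genes was lower, against 4.75% of all genes. It was the nucleotidase NT5C2, at 10.47 in K562 against 12.86 in HL60, 13.61 in MDSL and 12.75 in SKM1. CDA, cytidine deaminase, was under background in K562 at 2.85 and in MDSL at 2.99, with 7.73 in HL60 and 5.89 in SKM1. DCK, deoxycytidine kinase, stood at 9.82 in K562 against 11.66 in HL60, 10.73 in MDSL and 11.16 in SKM1. SAMHD1 stood at 9.55 in K562 against 11.84 in HL60, 9.20 in MDSL and 12.83 in SKM1; neither was called.

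Several genes outside these lists differed by as much. DLK1, an imprinted transmembrane protein of the Notch family, stood at 15.09 in K562 against 5.68 in HL60, 5.46 in MDSL and 5.24 in SKM1. NMU, a neuropeptide, stood at 14.29 in K562 and under background in HL60 (4.63), MDSL (4.65) and SKM1 (4.85). OR51B5, an olfactory receptor gene beside the beta globin locus, stood at 14.04 in K562 and under background in HL60 (4.08), MDSL (4.34) and SKM1 (3.48). KCNH2, a potassium channel, stood at 14.98 in K562 and 10.74 in MDSL, against 6.27 in HL60 and 5.82 in SKM1. HK1, a hexokinase with an erythroid form, stood at 14.73 in K562 against 6.24 in HL60, 7.32 in MDSL and 9.38 in SKM1. Among the lower genes, GPX1, the selenium-dependent peroxidase, stood at 5.05 in K562, under background, with the other lines between 12.99 and 13.69. IGFBP7, a secreted growth factor binding protein, stood at 5.67 in K562 against 13.69 in HL60, 14.68 in MDSL and 14.67 in SKM1.

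The stem and progenitor list held 4 higher and 2 lower of 18, with a median of -0.04. MECOM, a factor of blood stem cells, stood at 8.65 in K562 and under background in HL60 (3.73), MDSL (4.56) and SKM1 (4.78). LIN28B, a fetal RNA-binding protein, stood at 8.84 in K562 against 4.12 in HL60, 4.38 in MDSL and 7.43 in SKM1. CD34, the progenitor marker, stood at 5.58 in K562 and at 14.68 in MDSL. Of 8 HOXB genes 3 were higher, HOXB2, HOXB7 and HOXB9, and the 1 measured HOXA gene was not called. The median was 0.16 for HOXB and for HOXA, the value of a gene at background on all 4 arrays. Only 5 of the 8 HOXB genes, and not the HOXA gene, were above background on any of the 4 arrays. Of 12 housekeeping genes 1 was lower, B2M, with a median of -0.06. Over all genes 4.46% were higher and 4.75% lower. Among markers of other cell types, B cell markers had 0 calls in 6, T and NK markers 1 in 13 (CD3D), fibroblast and endothelial markers 1 in 11 (PECAM1, lower) and epithelial markers 3 in 9. Their medians were -0.09 for B cell, 0.16 for T and NK, 0.16 for fibroblast and endothelial and 0.59 for epithelial markers. Above background on at least 1 array were 7 of 13 T and NK and 7 of 11 fibroblast and endothelial markers. The mean level of the epithelial list was 8.97 in K562, against 5.59 in HL60, 5.70 in MDSL and 6.49 in SKM1. The higher members were the keratins KRT8, KRT18 and KRT19, with KRT18 at 14.11 in K562 against 4.87 in HL60, 5.15 in MDSL and 4.97 in SKM1. CDH1, the adherens junction protein that defines epithelium, was under background in K562 at 3.41, and EPCAM stood at 13.31 in K562 and 12.46 in SKM1.

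The called genes were not spread evenly along the chromosomes. Chromosome 7 had 11.7% of 635 genes higher and chromosome 13 had 13.4% of 231 lower, against 5.72% and 6.09% of the 13786 genes above background on any of the 4 arrays. Their median differences were 0.26 and -0.34. Chromosome 18 had the same lower share as chromosome 13, 25 of 187 genes (13.4%), with a median of -0.11. Chromosomes 22 (10.6%), X (9.88%) and 21 (9.62%) also lay above the 5.72% for higher genes. These chromosomes were singled out after the values were seen. BCR, on chromosome 22, and ABL1, on chromosome 9, are the partners of the K562 fusion. ABL1 stood at 10.37 in K562 against 7.95 in HL60, 7.95 in MDSL and 7.90 in SKM1. It was called, while BCR, which was not, stood at 9.98 in K562 against 8.37 in HL60, 9.49 in MDSL and 7.20 in SKM1. NUP214, a nuclear pore gene beside ABL1, stood at 13.43 in K562 against 10.36 in HL60, 9.78 in MDSL and 9.38 in SKM1. These were the 2 higher genes of 5 from ABL1 to NUP214, a stretch drawn after the values were seen, whose median was 0.21. In the list around ABL1, FNBP1 was lower, with a difference of -4.20 from the mean of the other lines. ASS1, also at -4.20, was not called.

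In gene order along chromosome 22, the genes before BCR, on the side of the short arm, held most of the higher genes. Of 63 genes before BCR 28 (44.4%) were higher, against 6 of 257 (2.33%) after it. The run from ESS2 to PRAME held 26 of 42 higher and none lower, with a median of 2.01. In the treated arrays 23 of the 42 were higher, and how many of these were among the 26 was not counted. HIC2, a transcriptional repressor, stood at 11.28 in K562 against 6.41 in HL60, 6.93 in MDSL and 6.57 in SKM1. TOP3B, a topoisomerase, stood at 12.35 in K562 against 9.43 in HL60, 9.20 in MDSL and 9.10 in SKM1. YDJC stood at 12.81 in K562 against 9.00 in HL60, 7.35 in MDSL and 8.31 in SKM1. On chromosome 9, the stretch from MLLT3 to CDKN2B held 5 of 12 lower, including MTAP, the phosphorylase of the methionine salvage pathway, at 5.01 in K562, under background, against 9.67 in HL60, 9.52 in MDSL and 11.54 in SKM1. CDKN2A, the neighbouring cell cycle inhibitor gene, was under background in K562 at 4.88, with 6.80 in HL60, 5.66 in MDSL and 11.67 in SKM1. It missed the call through MDSL. Another run, from SLC25A25 to DOLPP1, held 10 of 31 higher. The gene lists drawn around these sites, which reach beyond the runs, held 8 higher and 1 lower of 39 for BCR, 4 higher and 1 lower of 33 for ABL1, and 1 higher and 5 lower of 41 for 9p21. Their medians were 0.11, 0.16 and 0.16 in that order, and 0.16 is the value of a gene at background on all 4 arrays. Above background on at least 1 array were 32 of 39, 29 of 33 and 24 of 41 genes. The limits of these 3 runs were drawn after the values were seen, so their shares are descriptions only, and copy number was not measured.

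**Figure D3:**
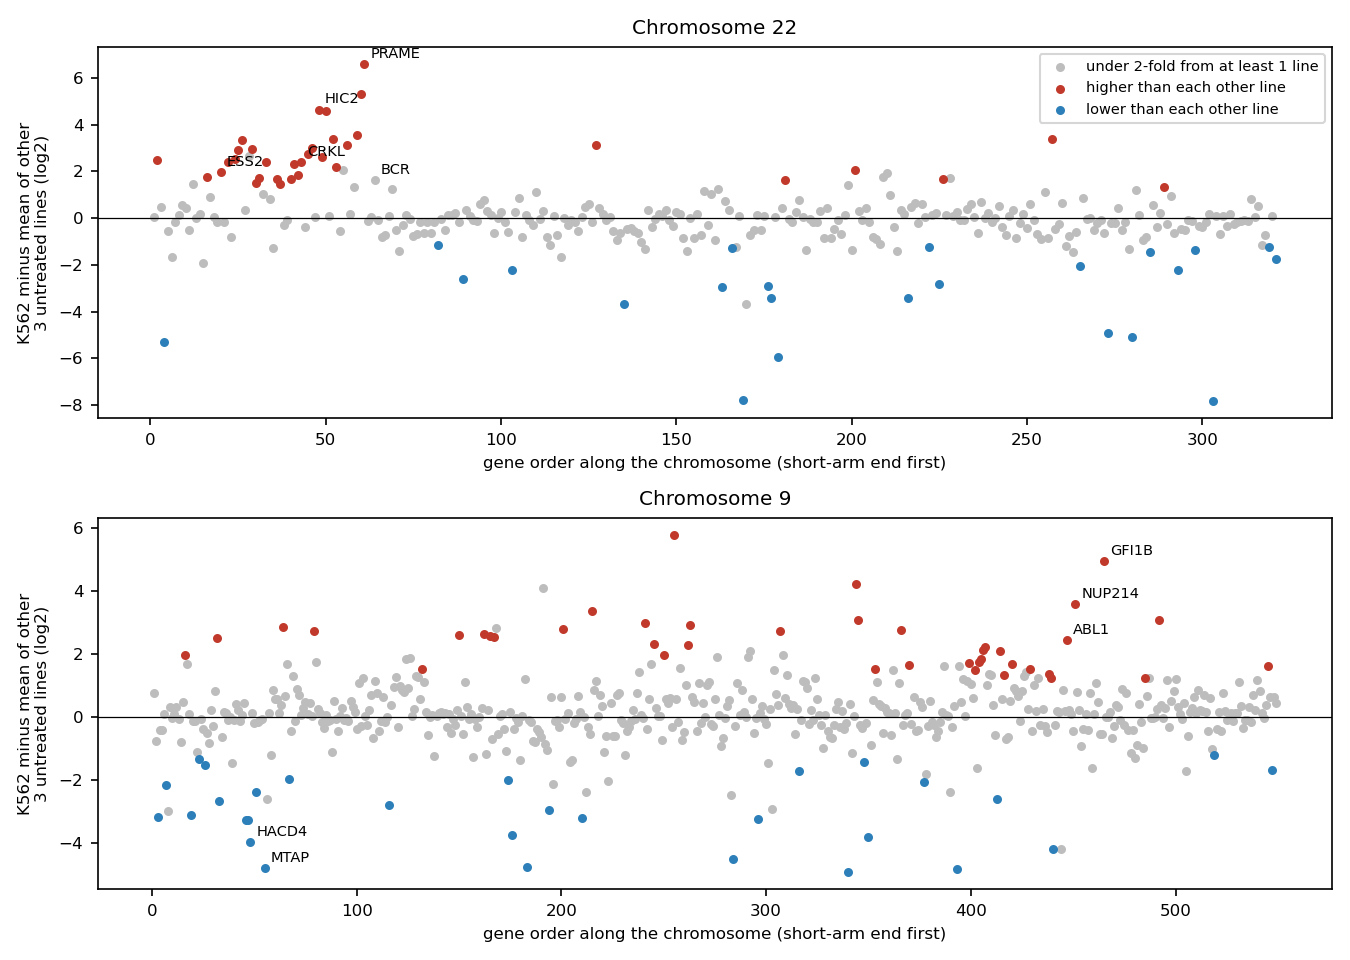
K562 minus the mean of the other 3 untreated lines (log2) for the genes of chromosomes 22 and 9 in gene order, with called genes in colour. On chromosome 22 the higher genes gather before BCR, where 28 of 63 are higher, and on chromosome 9 MTAP and HACD4 lie among lower genes.

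The OR21 treated arrays gave a second array of each line that the choice of genes had not used. Of the 789 higher genes 495 (62.7%) were called higher again, against 6.41% of all genes called higher there, and of the 840 lower genes 631 (75.1%) were called lower again, against 6.41%. None was called the opposite way. Treatment, dose and the change of line are mixed in this comparison. Hybridisation control spikes averaged 11.71 on the treated HL60 array and 10.85 to 11.10 on the remaining arrays. Without treated HL60, 534 (67.7%) of the higher genes and 696 (82.9%) of the lower genes were called again, against 8.57% and 8.92% of all genes. Of the 294 higher genes that lost their call, another line was at least 2-fold higher in its treated than in its untreated array in 145, K562 was at least 2-fold lower in its treated array in 74, and both held in 27.

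The globins and the granule genes kept their calls, 6 of 6 and 10 of 10, and globin margins moved both ways. HBA1 stood at 17.16 in treated K562, against 8.51 in HL60, 13.37 in MDSL and 7.89 in SKM1 in the treated arrays, a margin of 3.79, against 8.04 in the untreated arrays. For HBA2 the margin was 4.52 in the treated and 8.73 in the untreated arrays, and MDSL was again the nearest line. The margin of HBZ was 10.25 in the treated and 8.26 in the untreated arrays, and that of HBE1 was 7.92 and 7.76. Higher calls went from 3 to 8 of 12 haem genes and from 8 to 13 of 19 red cell membrane genes. Among 13 erythroid factors they went from 5 to 3. ALAS2 stood at 14.20 in treated K562 and at 8.07 in untreated K562, against 4.59 in HL60, 6.15 in MDSL and 4.84 in SKM1 in the treated arrays. GATA1 lost its call, at 13.29 in treated K562 against 7.60 in HL60, 12.88 in MDSL and 10.29 in SKM1 in the treated arrays. All 5 GAGE genes that were called lost theirs. GAGE1 stood at 11.58 in treated K562 and 11.24 in treated SKM1. MAGEC1, MAGEC2 and MAGEA3 were called on both sets of arrays.

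**Figure D4:**
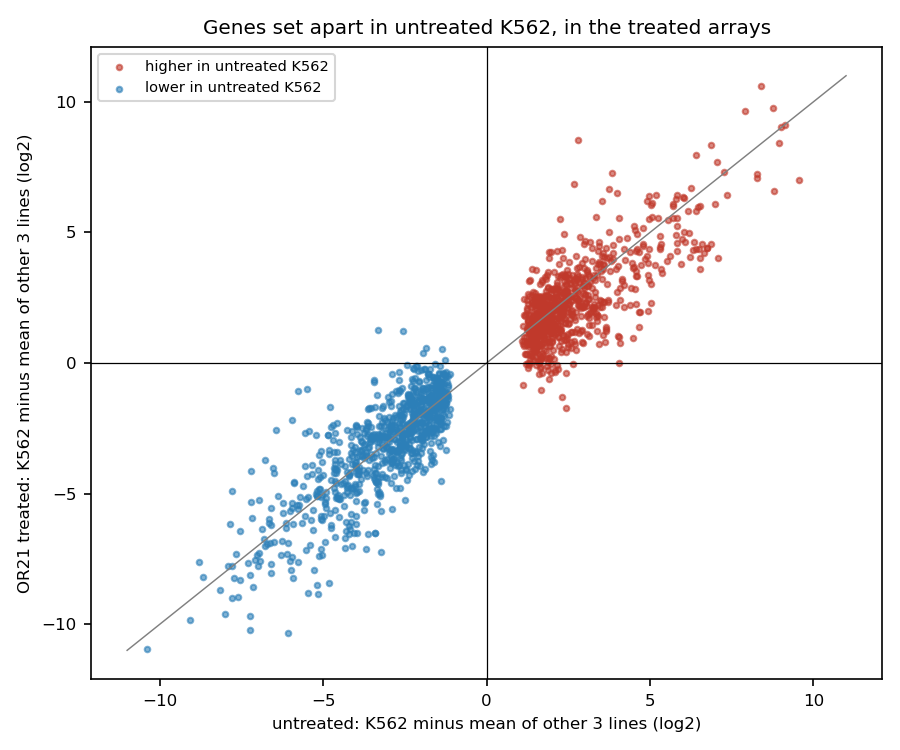
K562 minus the mean of the other 3 lines (log2) in the OR21 treated arrays (y axis) against the untreated arrays (x axis) for the 789 higher and 840 lower genes; the line marks equal values. Of the 789 higher genes 495, and of the 840 lower genes 631, are called the same way on both axes, and none is called the opposite way.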

How the data were processed

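RNA of K562, HL60, MDSL and SKM1 was measured on single-colour arrays of 1 array each. The deposited values are linear intensities per probe set, from 4.25 to 405294, per the value table; the software, background correction and normalization that the authors applied are not given in the sources used here. Here log2 of the intensity was taken with no pseudocount, and each array's background was the median of its 23 background rows. A platform annotation named 17709 probe sets with 1 symbol, none with several, and the brightest of several was kept for 20 genes, which left 17687; 3739 gene or transcript probe sets had no symbol. The table had 0 columns of no sample. Gene order came from a RefSeq gene table, chromosomes from the probe set names, promoters from RefSeq on GRCh38.p14.

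A gene was called at a minimum of 2-fold from each other line. Each line had 1 array, which limits the precision, so no test was made. The members and gene lists were chosen with earlier results of these data known. Named genes were the 15 largest differences each way, up to 6 members of each of 35 lists, and GATA1, CT45A1, MAGEA3, GAGE1, BCR, ABL1, CDKN2A, MTAP, DNMT1, SAMHD1, CDA and DCK. One more gene of the rule and 1 gene list are not reported here. BST2, CIITA, EPB42, EPOR, ERMAP, GUCD1, HBM, HBQ1, ICAM4, IFIT3, KLF3, LIN28B, LYZ, MOV10, OTUB2, PTPRC, TAP1, TAP2, TMOD1, TOP3B and the genes that bound the chromosome runs fall outside the rule and were chosen after their values were seen. The alternatives were other scalings, filters, background rules, thresholds and choices of arrays. Only the rule that calls genes was tested on simulated data, with bright genes shifted well past the limit and little noise. That test does not cover genes near the limit or near background, nor the other steps. Python 3.11.15, numpy 2.4.6, pandas 2.3.3 and matplotlib 3.10.9 were used.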

Additional observations from a re-analysis of the deposited data

Results flagged for a closer look

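Some probe sets that carry no gene symbol also differed between untreated K562 and each other line. Of 3739 such probe sets, which the comparisons of genes did not use, 133 (3.56%) met the rule for higher and 102 (2.73%) the rule for lower. The highest difference was that of TC1100013133.hg.1 on chromosome 11, at 17.53 log2 in K562, against 4.81 in HL60, 7.51 in MDSL and 5.09 in SKM1. TC0X00008272.hg.1 on chromosome X stood at 15.94 in K562, with 4.95, 5.31 and 4.94 in HL60, MDSL and SKM1. These probe sets are unnamed here.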

How the results depend on the processing

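The spread that a list median was judged against, the SD over the 3 other lines, was set after the values were seen, as were the common floor and the treated set without HL60. At 4-fold the counts were 274 higher and 388 lower, and with the treated arrays without HL60 they were 1516 and 1578. Leaving out 1 other line gave 993 to 1314 higher genes, the most without HL60, and 1079 to 1213 lower genes. Centring each array on its median gave 952 higher and 706 lower genes, so higher genes made up 57.4% of the calls against 48.4%, and moved the median of all genes to 0.33. With 1 floor for the 4 arrays the counts stayed at 789 and 840 and the median of all genes was 0.00. Quantile normalization gave 760 and 829.

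Leaving out 1 line moved the median of mast cell genes between -2.29 and 0.01, the last without MDSL, of class II genes between -5.05, without HL60, and -1.43, without MDSL, of erythroid factors between 0.58 and 0.95, the last without MDSL, of interferon genes between -0.34 and -0.09, the last without MDSL, of stem genes between -0.45, without HL60, and 0.18, without MDSL, of class I genes between -3.27 and -2.40, of haem genes between 0.52 and 0.90 and of iron genes between 0.29 and 0.58. Quantile normalization gave 0.69 for the GAGE, PAGE and XAGE list. Median centring gave 0.90 for haem, 0.40 for iron, 0.15 for megakaryocyte, 0.74 for GAGE, PAGE and XAGE, 0.33 for other cancer-testis, 0.024 for DNA methylation, 0.087 for B cell and 0.76 for epithelial genes, 0.43 for chromosome 7 and -0.17 for chromosome 13. Without dim genes the medians were 7.91 for globins, -0.15 for megakaryocyte, -3.20 for myeloid surface, 3.37 for HOXB, 0.85 for MAGE-A, 4.29 for MAGE-B and MAGE-C, 2.82 for GAGE, PAGE and XAGE, -0.10 for germ cell, -0.11 for 9p21, -0.99 for B cell, -0.26 for T and NK, 5.82 for epithelial and 0.51 for fibroblast and endothelial genes. With no floor they were -0.42 for HOXA, 7.44 for CT45A, 1.02 for GAGE, PAGE and XAGE, 0.42 for other cancer-testis, -0.13 for 9p21, -0.52 for B cell and -0.13 for fibroblast and endothelial genes.

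With AZA resistant HL60 in place of HL60 the medians were 0.53 for iron, -3.34 for myeloid surface, -0.72 for interferon, 4.98 for CT45A and 0.036 for MAGE-A genes, and with OR21 resistant HL60 they were 0.57, -3.33, -0.69, 5.10 and 0.078 in that order. MAGEA4 reversed, at -0.75 with AZA resistant HL60, -0.99 with OR21 resistant HL60, -0.83 in the treated arrays and -1.54 in those without HL60. In the treated arrays the medians were 2.64 for haem, 0.39 for iron, 4.24 for red cell membrane, -0.11 for erythroid factors, -0.53 for megakaryocyte, -8.48 for oxidase, -4.65 for myeloid surface, -1.47 for interferon, 4.35 for CT45A, 0.83 for MAGE-A, 2.14 for GAGE, PAGE and XAGE, 0.70 for cytidine, 0.60 for DNA methylation and 1.20 for epithelial genes. Without treated HL60 they were 5.33 for globins, 2.49 for haem, 3.83 for red cell membrane, -0.33 for erythroid factors, 0.18 for STAT5, -0.46 for megakaryocyte, -8.04 for oxidase, -4.53 for myeloid surface, -1.55 for interferon, -1.35 for stem, 4.63 for CT45A, 0.86 for MAGE-A, 1.34 for GAGE, PAGE and XAGE, 0.70 for DNA methylation and 1.42 for epithelial genes, and 1.62 for the run from ESS2 to PRAME. Of the 137 named genes that were called, 136 kept their call with quantile normalization and 136 with median centring, 123 with AZA resistant and 122 with OR21 resistant HL60, 112 in the treated arrays, 117 in those without HL60 and 112 at 4-fold. Leaving out a line or the floor cannot remove a call under this rule, so neither is a check on the calls. The causes were not tested. No paired analysis was possible because the comparison used untreated arrays, 1 for each line, and the second array of a line differs in treatment. Genes near background have a limited range.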
